A study of Homo sapiens with 4 samples.

Results

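The genes described here are 39 human genes for SR proteins, heterogeneous nuclear ribonucleoproteins (hnRNPs) and other proteins that choose splice sites. They were taken by name from the isoform tables of the series, and their isoforms are the transcript entries of those names whose estimate did not fail. The 39 genes are among 53617 in the tables, and 38 of them hold 429 of the 168036 transcript entries. The 4 RNA-seq libraries came from HT29, an established line of human colon adenocarcinoma cells, with 1 library in each group, so no value has a replicate check. The precursor library came from cells given a miR-23b precursor, which raises the microRNA, and the precursor control from cells given its control. The antimir library came from cells given an antimir, an oligonucleotide that blocks the microRNA, and the antimir control from cells given its own control. All 4 cultures were of passages 12 to 13, were transfected at 90% confluency in McCoy medium with 5% serum, and received 50 nM of oligonucleotide (the labels write "50nm") with Lipofectamine 2000. The medium was renewed after 24 h and total RNA was taken after 48 h. The level of mature miR-23b was not analysed here, so the transfections are known from the labels alone.

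SR proteins bind exons and mostly help the spliceosome to include them, while many hnRNPs bind silencer elements and repress splice sites. The branch point and 3′ splice site factors form the first contacts of the spliceosome with an intron. Many of these genes control their own level through a poison exon or a retained intron, which gives an RNA that is degraded by nonsense-mediated decay or stays in the nucleus, so the isoform mix of a splicing factor gene is part of how its level is set.

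Of 9 colon epithelium markers, 8 reached 1 FPKM in every library, the exception being CDH17. FPKM is a read density per transcript length and library size. Fibroblast, endothelium and neuron markers each summed to at most 0.825 FPKM in any library, and the leukocyte markers PTPRC and CD3E were below 1, although LYZ, which is also an epithelial gene, was high. Between 13149 and 14994 genes reached 1 FPKM per library. The tables hold no read counts, so the depth is unknown. In the antimir library 18 of 18 interferon-induced genes were more than 1.5-fold higher than in its control, where 3.73% of all genes were, and the part of this in the values below was not tested. In bulk RNA, fewer cells of a type and less RNA per cell cannot be told apart.

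One kind of sequence that bears on the members is the seed match of the microRNA in their 3′ untranslated regions. The mature sequence is shown with its seed, bases 2 to 8, in capitals (RefSeq, GRCh38.p14). The labels give no arm, and the 3p strand is shown.
miR-23b-3p: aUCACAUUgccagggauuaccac
The match AATGTGA, read on the transcript strand only, was present in the 3′ untranslated region of at least 1 transcript of 4 of 37 members (10.8%), against 3494 of 17947 genes (19.5%), although the median length was 1501 bases in the members and 1066 bases in all genes. These 4 genes are shown because they are the members that carry the match, in capitals, with the bases beside it (GENCODE 29).
SRSF6: ttcttggtAATGTGAaaaaggcc
HNRNPU, distal: ccctcaccAATGTGAagtgagga
HNRNPU, proximal: atctgtaaAATGTGActtttttt
PTBP3, proximal: tctttgttAATGTGActttcatt
PTBP3, distal: ttagagaaAATGTGAgtttcagt
HNRNPA2B1: tttacaggAATGTGAtactcagg
The SRSF6 match and the distal HNRNPU match are followed by an A, which makes them 8-base matches. A match is a description of the letters, not of binding.

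Another is the exon that ends the reading frame early in an isoform annotated for nonsense-mediated decay. Such exons were sought among those that overlap no exon of the gene's most abundant coding transcript of at least 900 bases. Other coding transcripts were not compared, so the exons need not be particular to decay isoforms. Of 14 exons found, in 10 members, those of SRSF7, SF1, SRSF11 and U2AF1 are not shown. The stretch runs from the first base of the exon to the stop codon, which is in capitals (GENCODE 29).
SRSF3, exon 4 of 7: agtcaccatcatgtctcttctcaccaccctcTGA
SRSF4, exon 2 of 3: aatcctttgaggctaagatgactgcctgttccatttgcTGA
SRSF6, exon 3 of 7: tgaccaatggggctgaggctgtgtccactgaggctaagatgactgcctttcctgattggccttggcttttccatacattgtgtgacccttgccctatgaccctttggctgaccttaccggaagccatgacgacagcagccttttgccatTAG
TRA2B, exon 2 of 10: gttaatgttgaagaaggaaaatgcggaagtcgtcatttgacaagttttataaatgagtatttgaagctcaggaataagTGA
HNRNPL, exon 7 of 14: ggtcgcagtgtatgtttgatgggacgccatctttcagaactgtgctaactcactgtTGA
HNRNPH1, exon 3 of 4: cgttggtaacggaaagcgacctgTAA
The SRSF4 and SRSF6 exons shared a run of 20 bases, tgaggctaagatgactgcct. Between the first base and the stop codon, this was the longest run shared among 84 pairs of such exons from different members. The next longest had 8 bases. Bases past the stop codon were not compared, and some stretches were short, such as 6 bases in U2AF1. An exon stretch present in several isoforms was counted each time. The frame of the SRSF3 exon closes after 34 bases of an exon of 456 bases, and that of SRSF6 after 152 of 268.

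Not every member could be measured. All SRSF10 transcripts had a failed estimate in both tables, and HNRNPA0, which has no intron in its coding part, had no transcript entry. Its only entry, of the whole locus, stood at 39.6 FPKM (precursor), 37.04 (precursor control), 32.2 (antimir) and 36.7 (antimir control). For HNRNPC, a protein that binds uridine tracts, failed estimates held 99.6%, 99.8%, 91.6% and 88.9% of the FPKM in the same order. The values left (3.25, 2.16, 51.4 and 63.6 FPKM) describe minor isoforms only, and HNRNPC stays in the counts below with this limit. This left 37 members, all past the low-value filter of a mean of 1 FPKM, of which 36 had at least 2 transcripts and SRSF1 had 1. In the text below, 4 values in a row are always for the precursor library, its control, the antimir library and its control.

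At the level of the whole gene the splicing factors were close to their controls in both comparisons. A gene's level is the sum of its transcripts in FPKM, and its difference is log2(FPKM + 1) of the treated library minus that of its control, centred on the median of all genes. None of 37 members was more than 1.5-fold higher or lower in the precursor library, where 2.12% of all genes were higher and 2.33% lower. None was in the antimir library either, against 3.73% higher and 2.14% lower of all genes. The member median was -0.025 in the precursor comparison, with 14 members above 0 and 23 below, and 0.0037 in the antimir comparison, with 19 above and 18 below. The lowest and highest members were SRSF11 at -0.32 and HNRNPC, by its minor isoforms alone, at 0.40 in the precursor comparison. They were PTBP3 at -0.40 and SRSF3 at 0.12 in the antimir comparison.

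**Figure D1:**
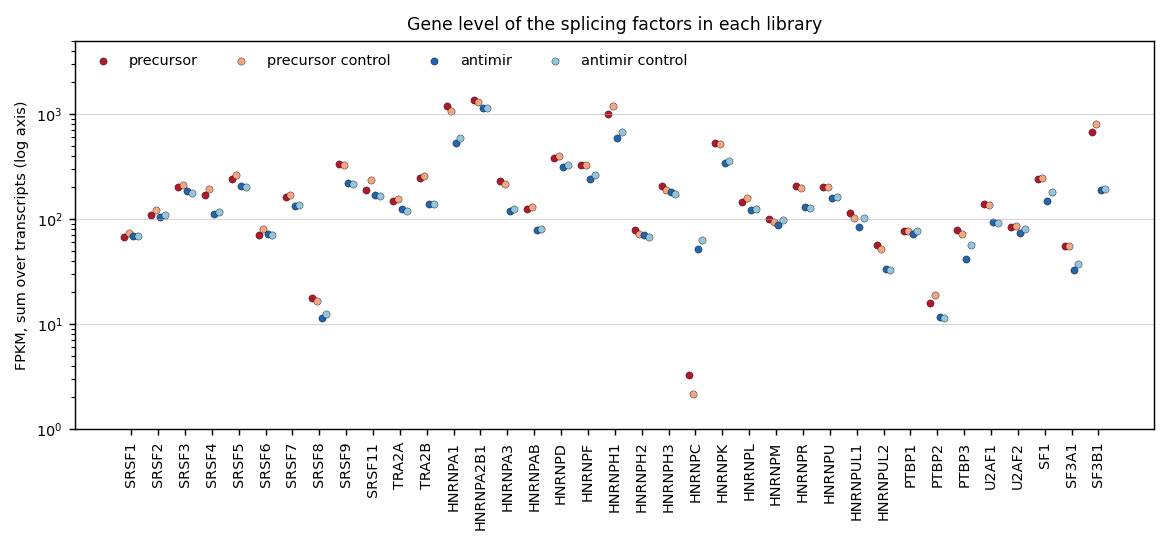
Gene level of 37 splicing factors in FPKM (log axis), the sum over transcripts, with 1 point per library. The precursor library and its control lie close together for most genes, and so do the antimir library and its control, while both libraries of the antimir table lie lower for genes such as SF3B1 and HNRNPA1; HNRNPC shows only its minor isoforms.

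The 10 measured SR proteins had a median difference of -0.13 in the precursor comparison, with 8 below 0, and of 0.050 in the antimir comparison, with 7 above 0. SRSF1, the founding member of the family, stood at 67.4, 73.8, 68.9 and 69.5 FPKM, a difference of -0.15 and of 0.03. SRSF2, which binds exonic enhancers and stays in nuclear speckles, stood at 110, 121, 104 and 108 FPKM (-0.15 and -0.02). SRSF3, the smallest SR protein, stood at 203, 212, 186 and 176 FPKM (-0.08 and 0.12). All of these lay within a narrow band of uncentred FPKM over the 4 libraries. SRSF7, a close relative of SRSF3 with a zinc knuckle, stood at 163, 169, 133 and 135 FPKM (-0.07 and 0.02). SRSF9 was the most abundant of the family at 332, 324, 222 and 217 FPKM (0.01 and 0.07). For SRSF7 and SRSF9 the step between the tables was larger in uncentred FPKM than the step within either table. Over all genes, however, the antimir control lay at a median of -0.32 against the precursor control, in log2(FPKM + 1). Centred on that median, the controls differed by -0.010 for SRSF7 and by -0.26 for SRSF9. SRSF11, a speckle protein with the lowest difference of all members in the precursor comparison, stood at 190, 233, 170 and 165 FPKM, so the precursor control was its highest library. SRSF4, SRSF5 and SRSF6 differed by -0.22, -0.12 and -0.22 in the precursor comparison and by -0.02, 0.09 and 0.07 in the antimir comparison. Without transcripts under 600 bases the precursor difference of SRSF4 was -0.0062 and that of SRSF2 was -0.27. TRA2A and TRA2B, which act with SR proteins on purine-rich enhancers, both lay at -0.10 in the precursor comparison, and at 0.10 and 0.06 in the antimir comparison.

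Among the hnRNPs of the A/B and D group, HNRNPA2B1, which binds RNA in nucleus and cytoplasm, was the most abundant member at 1360, 1298, 1155 and 1139 FPKM (0.05 and 0.06). HNRNPA1, the best-known silencer-binding repressor, stood at 1206, 1076, 529 and 597 FPKM (0.14 and -0.13). Both libraries of the antimir table were lower for HNRNPA1 than both libraries of the precursor table. Centred on the median of all genes, its antimir control differed from its precursor control by -0.53. HNRNPH1, which binds G tracts, stood at 992, 1195, 590 and 670 FPKM, with a difference of -0.29 in the precursor comparison and -0.15 in the antimir comparison. Leaving out transcripts under 600 bases brought these to -0.18 and -0.01. HNRNPK, a poly(C) binding protein, stood at 526, 516, 344 and 354 FPKM (0.01 and -0.00), close to its control in each table. The other hnRNPs had 6 of 8 members above 0 in the precursor comparison and 3 of 8 in the antimir comparison.

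PTBP1, the polypyrimidine tract repressor, stood at 77.4, 77.4, 71.8 and 76.5 FPKM (-0.02 and -0.05). Its paralog PTBP2, best known from neurons, was one of the lowest members at 15.7, 18.8, 11.7 and 11.5 FPKM (-0.27 and 0.07), and its antimir difference was 0.45 without transcripts under 600 bases. PTBP3, a paralog found outside the nervous system, stood at 79.2, 71.4, 41.3 and 56.2 FPKM (0.13 and -0.40). The antimir value of PTBP3 was -0.12 without transcripts under 600 bases. All 5 branch point and 3′ splice site factors lay below 0 in the precursor comparison, between -0.25 and -0.0028, and 3 of 5 in the antimir comparison. U2AF1, which reads the AG at the 3′ splice site, stood at 138, 136, 92.7 and 92.3 FPKM (-0.00 and 0.05), and its partner U2AF2, which binds the pyrimidine tract, at 83.3, 84.9, 73.7 and 81.0 (-0.05 and -0.10). SF3B1, the U2 snRNP protein that holds the branch point, stood at 681, 799, 189 and 192 FPKM (-0.25 and 0.02). Most of the step between the tables for SF3B1 came from 1 short transcript, described below, and without short transcripts its differences were -0.10 and 0.05. SF1, which binds the branch point before U2 snRNP does, stood at 239, 247, 149 and 182 FPKM (-0.07 and -0.25).

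Of 9 member transcripts with a seed match, 2 of PTBP3 were listed at 0 in every library, and the 7 others differed by less than 1.5-fold from their controls. The SRSF6 transcript with the match (ENST00000244020) was at 42.6, 42.9, 39.2 and 36.1 FPKM, so the precursor library and its control were nearly equal. The main HNRNPU transcript with a match (ENST00000283179), of a scaffold protein, was at 65.0, 68.2, 72.1 and 69.96 FPKM. The main PTBP3 transcript with 2 matches (ENST00000374257) was at 20.5, 18.6, 24.0 and 25.3 FPKM. The HNRNPA2B1 transcript with the match (ENST00000354667) is minor, at 12.7, 14.8, 18.3 and 13.5 FPKM, of the gene with the highest level among the members. The remaining ones were ENST00000458258 of PTBP3 at 13.9, 12.97, 10.04 and 11.4 FPKM, and ENST00000440865 and ENST00000444376 of HNRNPU at 22.6, 22.9, 3.72 and 3.33 and at 9.75, 10.6, 11.2 and 11.5 FPKM.

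Isoform shares also moved little within each table. A share is the percent of the gene's FPKM in 1 isoform, and the share distance sums the absolute share differences between 2 libraries over isoforms and divides by 2, in percentage points. The members' median distance was 4.04 points in the precursor comparison and 6.62 in the antimir comparison, against 8.43 and 11.7 for all genes and 5.28 and 6.996 for genes of at least 50 FPKM, the range in which most members lie. A distance of at least 20 points was reached by 0 of 36 members in the precursor comparison, against 15.3% of all genes and 0.637% of genes of at least 50 FPKM. In the antimir comparison 1 of 36 reached it, PTBP2, against 27% of all genes and 4.14% of those of at least 50 FPKM. The antimir distance was above the precursor distance in 29 of 36 members, and in 66.6% of all genes.

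The 2 control libraries differed far more from each other than either treated library from its control. Their median share distance was 22.8 points over the members, and 23 of 36 members reached 20 points, against 60.9% of all genes and 63.8% of genes of at least 50 FPKM. It exceeded both treated distances in 31 of 36 members, the exceptions being SRSF2, SRSF6, HNRNPM, PTBP2 and U2AF2, and in 72.2% of all genes. The 2 controls come from separate tables, which were quantified separately. The FPKM scale of a table cancels in a share within a gene. Other effects of the separate quantification need not cancel, and their part was not tested. Transcripts under 600 bases held a median of 30.3%, 31.1%, 13.8% and 10.2% of the members' FPKM in the 4 libraries. Their share was higher in the precursor control than in the antimir control for 21 of the 22 members that have them, and over all genes 6145 were higher and 1379 lower. The part of transcript length in the difference between the tables was not tested beyond these values. Without transcripts under 600 bases, 14 members in place of 23 reached 20 points.

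**Figure D2:**
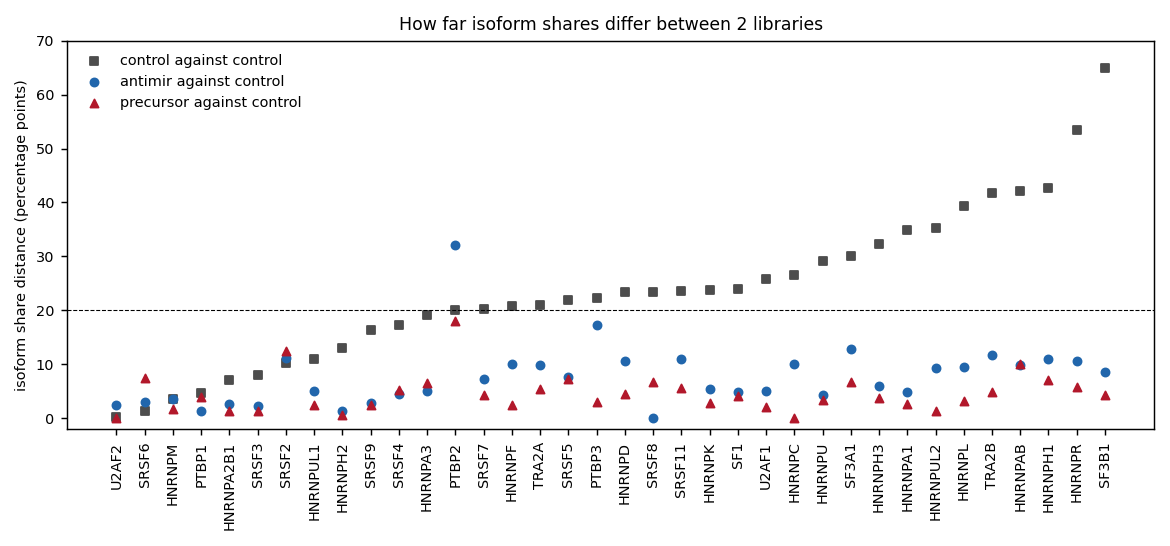
Isoform share distance in percentage points for 36 splicing factors with at least 2 transcripts, ordered by the distance between the 2 control libraries, with the 20 point line dashed. Squares for control against control rise to 64.9 for SF3B1, while triangles (precursor) stay under 20 and circles (antimir) pass it only for PTBP2 at 32.1.

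SF3B1 had the largest distance between controls, 64.9 points, and 4.34 and 8.48 points within the tables. A noncoding transcript of 141 bases (ENST00000462613) was at 386, 483, 0 and 5.72 FPKM and took 56.7%, 60.4%, 0% and 2.98% of the gene. The full coding transcript of 6526 bases (ENST00000335508) was at 95.2, 99.0, 108 and 103 FPKM. In uncentred FPKM the coding transcript was thus level over all 4 libraries, and the short one separated the tables. HNRNPH1 had a short coding entry of 143 bases (ENST00000523136) at 325, 421, 19.4 and 42.7 FPKM. HNRNPA1 had a retained intron entry of 359 bases (ENST00000551679) at 297, 263, 7.12 and 16.6 FPKM. HNRNPAB, a relative of the A group, had one of 578 bases (ENST00000504796) at 64.3, 67.5, 12.5 and 13.2 FPKM. Each of these short entries was high in both libraries of the precursor table and low in both of the antimir table.

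The largest distances within the precursor table were 17.9 points for PTBP2, 12.4 for SRSF2, 10.05 for HNRNPAB, 7.52 for SRSF6 and 7.23 for SRSF5. In PTBP2, a transcript not in GENCODE 29 (ENST00000236228) was at 2.25, 4.76, 3.77 and 3.26 FPKM and fell from 25.3% in the control to 14.3% in the precursor library. In SRSF2, a coding transcript of 2885 bases (ENST00000392485) was at 0.003, 13.1, 13.9 and 2.32 FPKM, which the authors marked as low data. It moved opposite ways in the 2 tables, and it set both SRSF2 distances. In HNRNPAB, 2 coding transcripts were higher in the precursor library. ENST00000358344 was at 25.2, 18.01, 17.1 and 22.9 FPKM and ENST00000355836 at 17.4, 13.6, 13.6 and 15.5, while ENST00000514633 was at 10.97, 15.9, 31.8 and 24.7. All 3 HNRNPAB transcripts lay on the other side of the control in the antimir library. In SRSF5, an SR protein, retained intron transcripts together took 25.4%, 30.5%, 22.7% and 20.8%.

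The largest antimir distances were 32.1 points for PTBP2, 17.3 for PTBP3, 12.9 for SF3A1, 11.6 for TRA2B and 11.2 for SRSF2. In PTBP2 a noncoding transcript of 365 bases (ENST00000462433) was at 7.46, 8.82, 2.63 and 4.88 FPKM, taking 22.5% of the gene after the antimir and 42.6% in the control. A noncoding transcript of 776 bases (ENST00000492905) took 23.3% and 9.45%. With SRSF8, PTBP2 was the member of lowest level in the antimir table, and its share values rest on entries of a few FPKM. In PTBP3 a noncoding transcript of 389 bases (ENST00000487997) was at 23.6, 22.9, 4.63 and 12.5 FPKM. In SF3A1, a U2 snRNP protein at 55.4, 55.3, 32.9 and 37.6 FPKM, a retained intron transcript of 593 bases (ENST00000485618) took 15.8%, 17.7%, 13.1% and 5.34%. Without short transcripts the antimir difference of SF3A1 went from -0.15 to -0.31. In TRA2B a coding transcript of 976 bases (ENST00000382191) was at 32.7, 33.0, 19.95 and 30.5 FPKM, lowest in the antimir library.

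The most abundant isoform differed in 6 of 36 members in the precursor comparison (17.9% of all genes) and in 5 of 36 in the antimir comparison (19.2%). In HNRNPM, which binds GU-rich sites, 2 coding isoforms (ENST00000325495 and ENST00000348943) stood at 46.9, 46.2, 45.2 and 46.2 FPKM and at 49.7, 46.1, 43.2 and 50.7. In HNRNPK the coding transcript ENST00000457156 stood at 139.8, 132.1, 57.9 and 66.3 FPKM and the decay transcript ENST00000472778 at 139.1, 132.9, 88.8 and 87.9. In both genes the leading isoforms were within a few percent of each other where they changed places in the precursor comparison. In HNRNPA3, of the A group, the leader in the precursor library (ENST00000432457) was at 70.3, 55.0, 19.1 and 25.9 FPKM, against 56.0, 57.5, 23.6 and 25.4 for the leader in its control (ENST00000416446). In TRA2B the leader of the precursor library was a noncoding transcript of 634 bases (ENST00000465245) at 51.3, 53.1, 21.98 and 16.7 FPKM. The leader of its control was a coding transcript of 288 bases (ENST00000342294) at 44.6, 55.4, 18.5 and 13.6 FPKM. In SRSF5 the coding ENST00000553548 (48.7, 47.1, 35.0 and 43.2 FPKM) and the retained intron ENST00000556330 (41.7, 49.5, 24.6 and 21.1) changed places, and in TRA2A the noncoding ENST00000497730 (27.7, 28.7, 35.7 and 24.9) and the decay transcript ENST00000448549 (26.0, 29.5, 0.494 and 1.39). In the antimir comparison the leaders changed in HNRNPF, a G-tract binder, where ENST00000337970 was at 44.2, 44.5, 98.2 and 82.3 FPKM and ENST00000540544 at 139, 132, 76.3 and 90.8, and also in HNRNPK, HNRNPL, HNRNPM and PTBP2. The leaders ENST00000497730 of TRA2A and ENST00000342294 of TRA2B were marked as low data by the authors, and with only tested entries 4 members in place of 6 differed in the precursor comparison, without these genes. Between the 2 controls, 17 of 36 members had different leaders, against 36.5% of all genes.

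HNRNPL, which binds CA repeats, showed the step between tables in a decay isoform. The transcript with the exon printed above (ENST00000388749, locus 19:39327029-39342987 on hg19) was at 13.7, 17.6, 58.3 and 49.1 FPKM and took 9.43%, 11.2%, 47.4% and 39.4% of the gene. The coding transcript (ENST00000221419) was at 48.9, 52.1, 39.4 and 51.8 FPKM. The decay isoform thus led in the antimir library and the coding isoform in its control. In TRA2B (locus 3:185633694-185655924), the decay isoform with the printed exon (ENST00000456380) was at 0.295, 1.13, 18.2 and 16.5 FPKM. Its coding transcript of 943 bases (ENST00000259043) was level in uncentred FPKM, at 33.9, 33.6, 36.0 and 36.7. Both decay isoforms were therefore high in the antimir table and low in the precursor table, the reverse of the short entries above.

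SRSF6 (locus 20:42086568-42092245), an SR protein with 2 transcripts in the tables, gives the simplest case of a coding and a decay form. The coding transcript, given above, was at 42.6 FPKM against 42.9 in the precursor control. The decay transcript of 1680 bases (ENST00000483871) was at 28.0, 38.2, 32.7 and 34.1 FPKM. Its share was 39.6%, 47.2%, 45.5% and 48.6%, lowest in the precursor library and between 45.5% and 48.6% in the others. SRSF3 differed from this. Its coding transcript (ENST00000373715) was at 147, 154, 150 and 141 FPKM and its decay transcript (ENST00000477442) at 44.3, 43.5, 19.2 and 22.1, or 21.8%, 20.5%, 10.3% and 12.6%. The decay share of SRSF3 thus differed more between the tables than within either. The decay form of SRSF4 with the printed exon (ENST00000489898) was minor at 6.32, 8.67, 6.37 and 6.52 FPKM. U2AF1 had a decay form (ENST00000486519) at 47.8, 47.0, 30.4 and 29.8 FPKM, close to a fixed share of 34.7%, 34.6%, 32.8% and 32.2%.

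**Figure D3:**
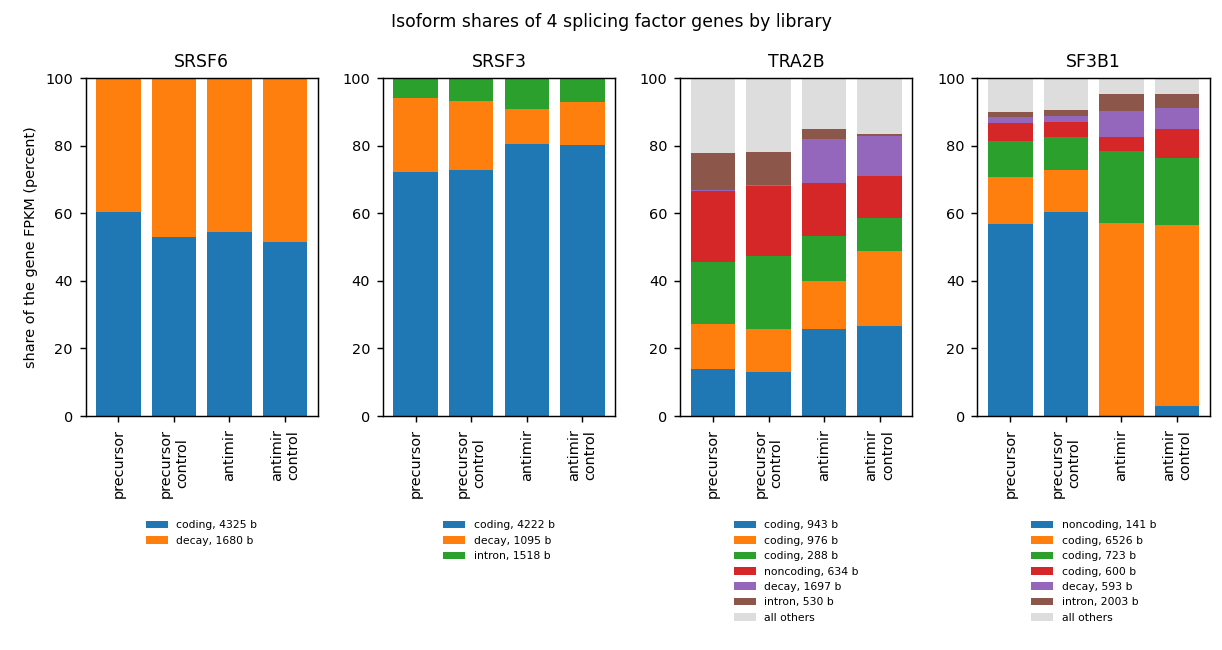
Isoform shares, in percent of the gene's FPKM, in each of the 4 libraries for SRSF6, SRSF3, TRA2B and SF3B1, with isoform class and length in bases (b); "decay" is the nonsense-mediated decay class and "intron" the retained intron class. The SRSF6 decay share is lowest in the precursor library at 39.6%, and in the other panels the 2 libraries of a table resemble each other more than the 2 controls do.

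The authors' deposited table gives a call of significance for each isoform, which compares 2 libraries and not 2 conditions. In the precursor table, calls were present for most members. Of 35 members with a tested isoform, 26 had at least 1 call, against 32.7% of all genes and 58.1% of genes of at least 50 FPKM. Of 287 tested member isoforms in the authors' deposited table, 18 were called higher (6.91% of all isoforms) and 43 lower (6.66%). The calls were unevenly spread over classes. Retained intron isoforms had 18 of 62 called lower, against 7.95% of all such isoforms and 9.64% in genes of at least 50 FPKM, and 1 called higher (SF3A1), against 3.41%. Isoforms of one gene share reads, and 7 of the 18 belonged to HNRNPH1; without it 11 of 50 were called lower. Counted by gene, 8 of 18 members with a tested retained intron isoform had one called lower, against 16.2% of all genes and 23% of genes of at least 50 FPKM. These were SRSF5, SRSF9, TRA2B, HNRNPA1, HNRNPA2B1, HNRNPH1, SF1 and SF3B1.

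Decay isoforms had 6 of 27 called lower in the authors' deposited table, against 7.52% of all such isoforms and 7.81% in genes of at least 50 FPKM. Called higher were 0, against 7.37% and 7.69%. Counted by gene, 6 of 19 members with a tested decay isoform had one called lower. Over all genes it was 11.8%, and 13.3% of genes of at least 50 FPKM. The 6 were 1 each of SRSF6, SRSF7, TRA2B, HNRNPD, HNRNPH1 and HNRNPL. The q-values in the authors' deposited table were 0.000739 for SRSF6, 0.000177 for SRSF7 and 0.0354 for HNRNPL. The SRSF7 isoform (ENST00000443213) was at 8.89, 13.6, 16.9 and 15.0 FPKM. The main coding form of SRSF7 (ENST00000409276) was at 82.5, 83.2, 76.0 and 84.0, level in uncentred FPKM. The HNRNPD isoform (ENST00000514671), of an AU-rich element binding protein, was at 9.54, 13.02, 10.6 and 10.6 FPKM. The HNRNPH1 isoform with the printed exon (ENST00000512273) was at 15.9, 25.2, 0 and 2.196 FPKM. In SRSF7 the precursor library was the lowest of the 4 in uncentred FPKM, as in SRSF6, HNRNPD, HNRNPL and TRA2B. In HNRNPL and TRA2B (values above) the step between the tables was far larger than the step within the precursor table. The HNRNPH1 isoform was lower still in the antimir table. Coding isoforms had 11 of 121 called higher, or 9.09%, near the 9.34% of all. Called lower were 13, or 10.7%, against 7.3% of all and 7.15% in genes of at least 50 FPKM. Other noncoding isoforms had 1 of 36 called higher (3.17% of all) and 4 lower, or 11.1%, against 3.68%. Isoforms not in GENCODE 29 had 5 of 41 called higher (9.84%) and 2 lower (7.97%).

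Among all tested isoforms, called or not, 49 of 62 retained intron isoforms of the members (79%) were lower in the precursor library than in its control, against 59.1% over all genes. For decay isoforms it was 19 of 27, against 48.9%. Coding isoforms were lower in 68 of 121 cases (56.2%), against 45.3%, and other noncoding isoforms in 23 of 36 (63.9%), against 51.3%. Isoforms not in GENCODE went the other way, with 13 of 41 lower (31.7%), against 47.9%. The tilt to lower values was thus not particular to the retained intron and decay classes. Summed by gene, the retained intron share was lower in the precursor library in 16 members and higher in 3, and over all genes lower in 3232 and higher in 2127. The decay share was lower in 14 members and higher in 5, and over all genes lower in 1932 and higher in 1971. These shares moved by small amounts, and the median coding share of the members was 47.9%, 47.8%, 57.0% and 56.9%. In the antimir table, of 254 tested member isoforms 0 were called, against 0.243% of all isoforms called higher and 0.171% lower. By gene it was 0 of 35 members, against 1.48% of all genes and 0.673% of genes of at least 50 FPKM. There 30 of 59 retained intron isoforms were lower than in the control (47.2% of all). There the retained intron share was lower in 6 members and higher in 13, and over all genes lower in 2364 and higher in 2755. The decay share was lower in 7 members and higher in 12, and over all genes lower in 1840 and higher in 1724. Whether the 2 comparisons differ was not tested.

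**Figure D4:**
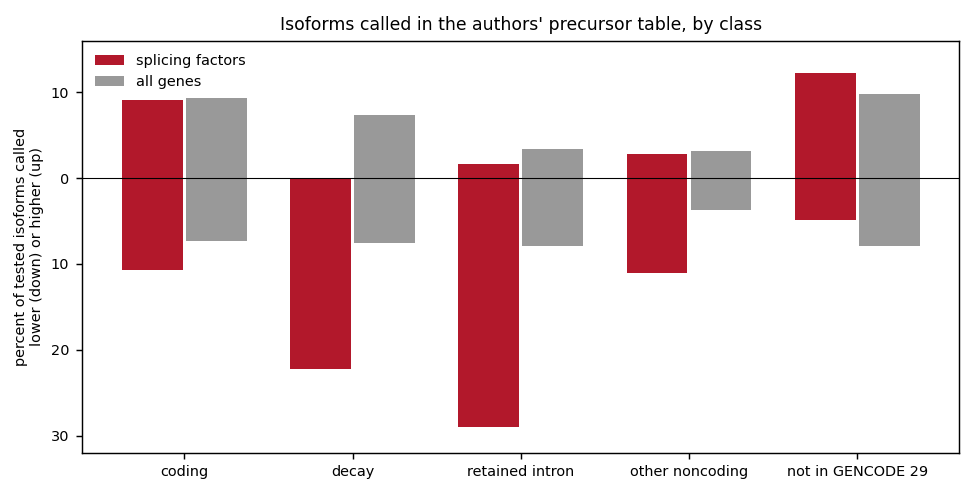
Percent of tested isoforms called higher (bars up) and lower (bars down) in the authors' precursor table, by class, for the splicing factors (red) and all genes (grey). The red bars reach 29% lower for retained intron and 22.2% lower for decay isoforms, against 7.95% and 7.52% over all genes. For coding isoforms the red bar is near the grey one upward and reaches 10.7% downward, against 7.3%. For other noncoding isoforms it reaches 11.1% downward, against 3.68%.

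The tables also hold 1 entry per gene that carries the gene identifier in place of a transcript and spans the whole locus. No source says how these entries were made, and they did not enter the sums above. They were low, with a member sum of 71.4, 92.4, 92.3 and 85.8 FPKM, so the precursor library was lowest. They were lower in the precursor library than in its control in 32 of 33 members, the exception being SRSF8, an SR protein from an intronless gene copy. HNRNPA0, whose only entry is of this kind and was higher in the precursor library (values above), is in neither the sum nor this count. The sum holds all 38 members with transcript entries, SRSF10 among them. The count holds only those whose whole-locus entry did not fail and had a mean of at least 0.1 FPKM. Of all genes 85.4% were lower, and 94.7% of genes of at least 50 FPKM, so the share of the members is near that of genes of like level. The median ratio was 0.737 in the members, from 0.522 for SRSF2 to 1.11 for SRSF8, and 0.803 in all genes. The SRSF6 entry was at 14.6, 19.0, 17.8 and 16.5 FPKM, and that of HNRNPH1 at 2.17, 3.47, 3.60 and 2.97. Of 27 tested member entries in the authors' deposited table, 20 were called lower and 0 higher, against 30.2% lower of all genes and 46.8% of genes of at least 50 FPKM. In the antimir table, lower entries were 9 of 33 (27.3%), against 41.6% of all genes and 32.2% of genes of at least 50 FPKM. The median ratio there was 1.09 in the members and 1.03 in all genes. Retained intron isoforms and these entries were both mostly lower in the precursor library. Whether they moved together gene by gene, and the part of the one in the other, was not tested.

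**Figure D5:**
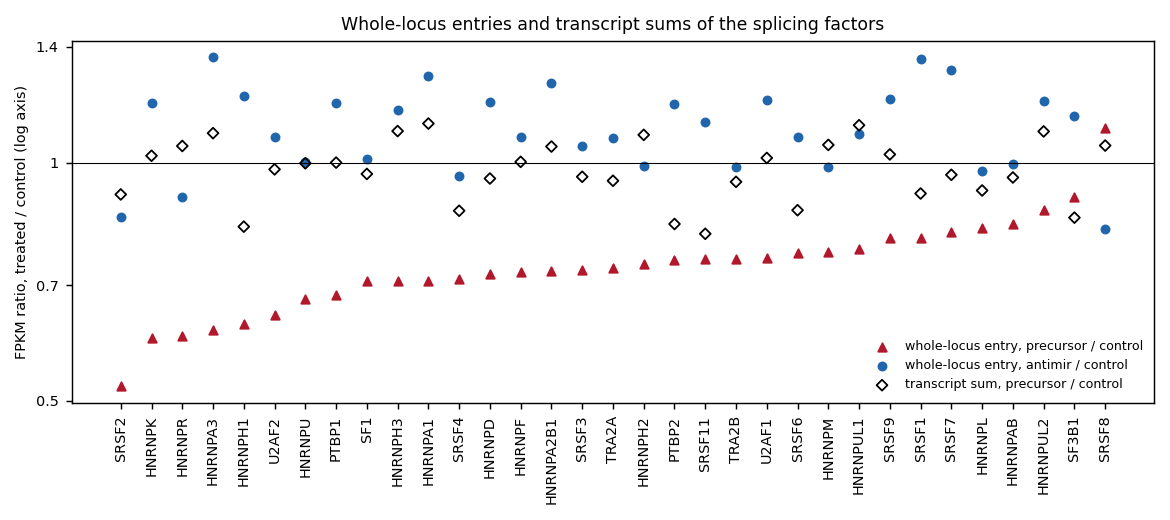
Ratio of treated to control FPKM (log axis) for the whole-locus entry of 33 splicing factors in the precursor table (triangles) and the antimir table (circles), with the ratio of the summed transcripts in the precursor table (diamonds). Triangles lie under 1 for all but SRSF8, while diamonds spread around 1.

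Genes that act on or beside the splicing factors are given by list, and some lay outside the range of the members. SR protein kinases, which release SR proteins from speckles, had 7 of 8 below 0 in the precursor comparison with a median of -0.16, and 5 of 8 above 0 in the antimir comparison with a median of 0.066; none passed 1.5-fold in either. CLK2 was at 20.2 FPKM against 27.7 in the precursor control (-0.46), and CLK1 at 69.8 against 86.4 (-0.33). In the antimir comparison CLK1 was at 68.3 and 54.8 FPKM (0.35). The proteins of U1 and U2 snRNP and the Sm core had 7 of 18 above 0 in the precursor comparison and 11 of 18 in the antimir comparison, none past 1.5-fold; SNRPD3, an Sm protein, was the farthest at 46.6 and 71.1 FPKM in the antimir comparison (-0.56). Proteins of the tri-snRNP and the catalytic step had 10 of 18 and 7 of 18 above 0, none past 1.5-fold, with PRPF19 at 202 and 145 FPKM in the antimir comparison (0.51). Exon junction complex and decay factors had 13 of 16 below 0 in the precursor comparison with a median of -0.034 and 9 of 16 in the antimir comparison. Other splicing regulators had 12 of 27 and 9 of 26 above 0, none past 1.5-fold, with RBM39 at 743 and 867 FPKM in the precursor comparison (-0.25). Of 10 genes known to respond to nonsense-mediated decay, 7 were above 0 in the precursor comparison with a median of 0.048 and 4 in the antimir comparison, where only ATF3 passed 1.5-fold, at 5.98 and 11.6 FPKM. ADAR and the RNA sensors had a median of -0.036 and of 0.36, and EIF2AK2, an interferon-induced kinase, passed 1.5-fold higher in the antimir library. In the precursor comparison the interferon-induced genes had a median of -0.26, with 2 of 15 more than 1.5-fold lower.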

How the data were processed

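The tools bcl2fastq 1.8.3, TopHat2 2.0.11, Cufflinks 2.2.0 and Cuffdiff and the build hg19 are named, per the submitters' processing notes; their settings and the annotation are not given in the sources used here. Deposited by the authors were 2 tables, each of 1 treated library and its control, as FPKM per isoform. Per the file headers, each also holds the authors' p-value, q-value and call. The library with a final N in its name was taken as the control, being the only other one; the labels' protocols name 3 library tags for 4 indices, 1 of them given again, so the tags do not check this. Failed entries were left out (1321 and 1528). Gene FPKM was summed over transcripts, and differences used a pseudocount of 1 and genes with a mean of at least 1 FPKM, so folds of low genes are understated. No test was run, since each group has 1 library. The median removed was 0.022 (precursor), -0.039 (antimir) and -0.32 (antimir control against precursor control). Isoform classes, exons and untranslated regions came from GENCODE 29 by transcript identifier, without its coordinates; 375 of 429 member transcripts matched. Cufflinks divides reads among overlapping isoforms, processed gene copies (HNRNPA1) and near-identical paralogs (HNRNPH1 and HNRNPH2), and SRSF2 overlaps another gene, with no strand setting stated, so these values are uncertain. Named genes were the 5 largest share distances per comparison, members whose leading isoform differed, the most abundant of each family, a fixed set of well-known members, and up to 3 genes of each other list. Other genes and isoforms named were chosen after their values were seen. The members and lists were chosen with earlier results of these data known. The limits of 600 bases, 50 FPKM and 0.1 FPKM (whole-locus entries) were set after seeing values. Calculations used Python 3.11.15 with pandas 2.3.3 and were tested on simulated data.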

Additional observations from a re-analysis of the deposited data

How the results depend on the processing

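No paired analysis was possible because each group held 1 library, and for the same reason no library could be left out. FPKM without counts limits precision by an unknown depth. Of 110 alternative values, 92 stayed within the limits set for a change, including the count of 0 members past 1.5-fold. The medians of gene differences are near 0 and moved. The precursor median (-0.025) was -0.0030 without centring, -0.0084 without the low-value filter, -0.043 at a mean of at least 5 FPKM and -0.060 with failed entries kept. The antimir median (0.0037) was 0.0073 with a pseudocount of 0.1, 0.0067 at 5 FPKM, 0.019 with failed entries kept and 0.0066 with status OK only. It turned negative without centring (-0.036), without the filter (-0.024) and with whole-locus entries counted (-0.0049), so it has no stable sign. At a threshold of 10 points in place of 20, 3 members passed in the precursor comparison (HNRNPAB, PTBP2, SRSF2) and 9 in the antimir comparison. The settings added after seeing the data were 2: without transcripts under 600 bases, 2 members passed 20 points in the precursor comparison (HNRNPAB, PTBP2), 14 between controls (from 23), and 8 had a different leading isoform between controls (from 17). With shares of FPKM times transcript length these were 1 (SRSF2) in the precursor comparison and 9 different leaders. The cause was not tested.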
